A study of Mus musculus with 14 samples.

Results

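The C/D box small nucleolar RNA (snoRNA) genes are described here along the purification of the chromatoid body from adult mouse testis. They were taken as every gene of the joint expression table whose symbol begins with Snord. There were 67 of them among 27024 features, of which 21905 carried a gene symbol. Of the 67, 44 were above 0 in all 5 conditions of that table, 18 were at 0 in some conditions, and 5 were at 0 in all 5. The rule used symbols and no measured value.

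The chromatoid body is a perinuclear granule of round spermatids, the early haploid male germ cells, and it holds RNA, the helicase MVH (encoded by Ddx4) and piRNA pathway proteins. All mice were C57BL/6 aged at least 6 weeks, with no treatment named. Beside the fractions, sorted round spermatids (2 libraries with 1 pooled value) and sorted round spermatids of a library labelled hetMIWI (1 library, with its genotype not spelled out further in the labels) are used in the closing values only. Tubule cells were dissociated with collagenase, fixed with formaldehyde and sonicated into the lysate, which was spun into the supernatant and pellet1. Pellet1 was sonicated again, filtered and spun to give pellet2, and MVH was immunoprecipitated from pellet2 in the protocol, although the sample type names lysate as the source of the MVH IP. Lysate, supernatant, pellet1 and pellet2 are 1 library each. The MVH IP is 3 libraries for which the joint table gives 1 value. The sources used here do not give how many animals or pools stand behind a library, and every cell type of the testis could contribute to the starting lysate. The control IPs (IgG and ACR) were not analysed here, so no MVH IP value has a background IP beside it.

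C/D box snoRNAs are short noncoding RNAs of the nucleolus and, for some, the Cajal body. Each is bound by fibrillarin (Fbl), Nop56, Nop58 and Nhp2l1, and most use a stretch of complementarity next to a box to direct ribose methylation of ribosomal RNA or of the spliceosomal U6 RNA. In mammals most are cut out of introns of host genes, which are often genes for ribosomal proteins or noncoding RNAs known as snoRNA host genes (Snhg, Gas5). They are nuclear RNAs, whereas the chromatoid body is cytoplasmic.

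The sequences of 12 members on which the results turn are printed from GENCODE M21 transcripts (GRCm38), 5′ to 3′ as DNA letters. Capitals mark the C box (ATGATGA or GTGATGA, starting within the first 20 bases) and the D box (CTGA, starting within the last 15 bases), searched on the RNA strand only. The first set holds 5 members whose MVH IP level lay at most 1.38-fold from pellet2.

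Snord34: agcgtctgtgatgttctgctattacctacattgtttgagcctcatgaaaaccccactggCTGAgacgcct
Snord87: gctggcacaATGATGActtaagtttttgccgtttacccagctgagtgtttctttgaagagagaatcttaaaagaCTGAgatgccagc
Snord82: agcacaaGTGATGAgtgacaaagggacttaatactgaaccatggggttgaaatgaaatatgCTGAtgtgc
Snord99: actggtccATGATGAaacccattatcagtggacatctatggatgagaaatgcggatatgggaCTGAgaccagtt
Snord95: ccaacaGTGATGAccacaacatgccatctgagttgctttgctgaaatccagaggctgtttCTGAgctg

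The second set holds 7 members whose MVH IP level lay 6.85-fold or more below pellet2. Snord15a and Snord15b are printed together because they lie in the same host gene and parted in the MVH IP.

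Snord69: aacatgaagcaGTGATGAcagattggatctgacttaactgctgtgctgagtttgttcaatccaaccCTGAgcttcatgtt
Snord15a: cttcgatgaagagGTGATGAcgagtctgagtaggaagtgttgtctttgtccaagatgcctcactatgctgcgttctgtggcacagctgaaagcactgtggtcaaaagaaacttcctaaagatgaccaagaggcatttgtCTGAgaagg
Snord15b: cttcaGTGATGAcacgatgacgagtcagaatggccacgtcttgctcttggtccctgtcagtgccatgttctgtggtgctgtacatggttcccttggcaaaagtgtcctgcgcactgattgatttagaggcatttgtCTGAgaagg
Snord61: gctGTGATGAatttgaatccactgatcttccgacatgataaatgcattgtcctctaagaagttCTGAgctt
Snord22: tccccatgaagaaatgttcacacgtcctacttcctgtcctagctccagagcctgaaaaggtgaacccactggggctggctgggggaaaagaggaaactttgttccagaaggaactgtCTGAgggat
Snord92: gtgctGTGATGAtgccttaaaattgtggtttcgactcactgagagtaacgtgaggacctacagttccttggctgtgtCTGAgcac
Snord37: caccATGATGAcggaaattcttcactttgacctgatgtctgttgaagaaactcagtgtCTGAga

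A C box was found in 38 and a D box in 59 of the 66 members with a GENCODE transcript, and 37 members, 56.1%, held both. Among 42 GENCODE transcripts of H/ACA snoRNAs (Snora), the other large snoRNA class, 0 held a C box and 3 a D box, so 0% held both. Of the printed members, Snord34 and Snord22 had no exact C box in that window, and all 12 had the D box. The transcripts were 64 to 238 bases long with a median of 79.5 bases. By GRCm38 coordinates, Snord34 lies at chr7:45126601-45126670 on the minus strand in an intron of Rpl13a, and Snord69 at chr14:31014287-31014366 on the minus strand within Gnl3. Snord82 lies at chr1:86356261-86356330 on the minus strand in an intron of Ncl, the gene of nucleolin. Of the 66, 65 lay inside a host gene on the same strand, 36 of them in introns of every host model, and 19 had a ribosomal protein gene as host. Snord104, outside any host model, was the exception.

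These lengths limit what the levels can mean. Library fragments were cut from a gel at 350 to 500 bp, longer than each of the 66 transcripts, and FPKM (fragments per kilobase of gene, scaled to library size) divides by a length. Multiplying each member's FPKM by its RefSeq length and summing implied 175.7% of the library's fragments in pellet1 and 99.0% in pellet2, against 23.6% in lysate, 12.7% in supernatant and 37.4% in MVH IP. The pellet1 value is more than a whole library, so the FPKM of these genes is a scaled level and not a number of molecules. Reads of a snoRNA and of the host transcript that spans it cannot be told apart from these values, and the use of strand in counting was not given in the sources at hand. Depth is unknown, and the conditions have no replicate values, so differences below have a size and no error of their own.

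Along the fractionation, nearly all members shared a profile. The median FPKM of the 44 members above 0 throughout was 15141 for lysate, 6584 for supernatant, 104002 for pellet1, 63532 for pellet2 and 15849 for MVH IP. Pellet1 was the highest condition for 41 of the 44, whereas it was the highest for 4.88% of the 12404 named genes measured in the same way. The MVH IP was the highest condition for 1 member, Snord82, and for 69.6% of named genes. The order pellet1, pellet2, lysate, supernatant from high to low held for 39 of the 44 members and for 15.2% of named genes. Supernatant was below lysate for 43 of the 44, against 50.7% of named genes, with Snord72 as the exception. In bulk fractions, fewer cells of a type and less RNA per cell cannot be told apart.

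**Figure D1:**
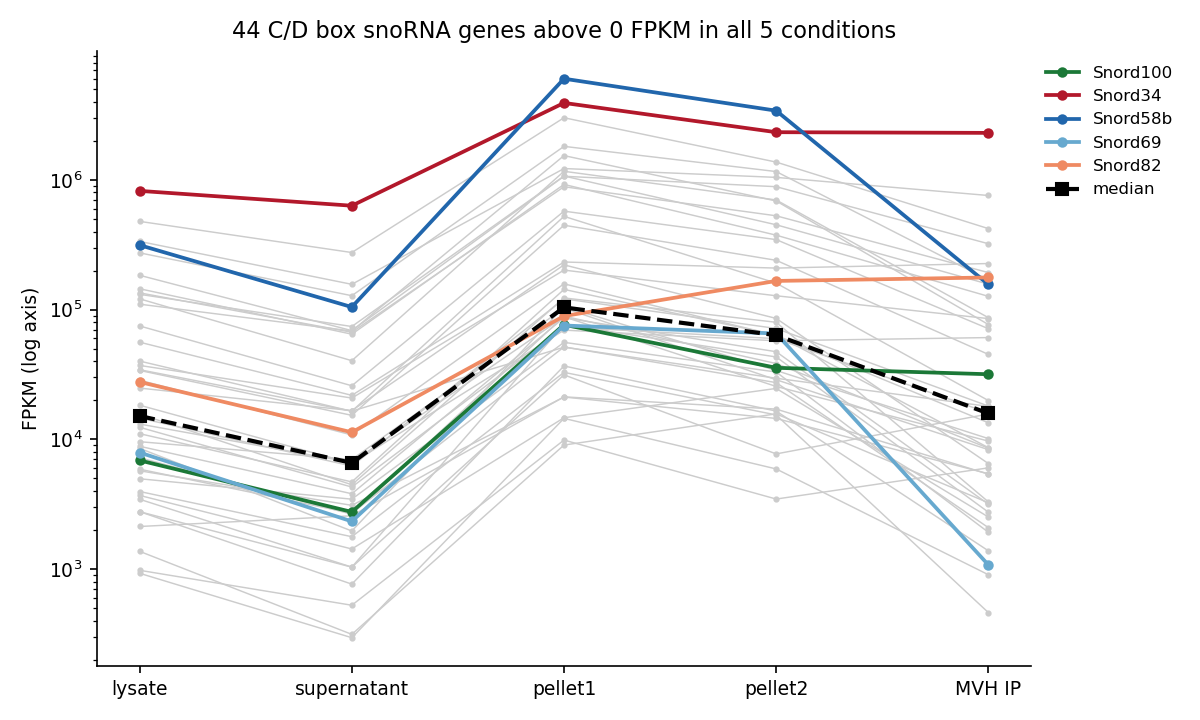
FPKM on a log axis of the 44 C/D box snoRNA genes above 0 in each of the 5 conditions, 1 line per gene, with 5 genes in colour and the median dashed. The median runs from 15141 in lysate to 104002 in pellet1 and back to 15849 in MVH IP, while Snord34 and Snord82 stay near their pellet2 level and Snord58b and Snord69 drop.

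A few members held most of the members' summed FPKM. Snord34, which guides methylation of large-subunit ribosomal RNA, stood at 822679 FPKM (lysate), 632275 (supernatant), 3919200 (pellet1), 2331190 (pellet2) and 2302890 (MVH IP). It was the highest member in lysate, supernatant and MVH IP. Snord58b, another large-subunit guide in Rpl17, stood at 314040, 104622, 6024400, 3415580 and 156402 FPKM in that order of conditions. It was the highest member in both pellets and was lower in the MVH IP than in lysate. Snord38a, also a large-subunit guide, was at 478818, 275451, 3013430, 1371390 and 421312 FPKM. Snord87 in Snhg6 was at 335497, 156663, 1223140, 1045550 and 758065 FPKM. Snord37 in Eef2, the gene of a translation elongation factor, was at 273821, 128032, 1813130, 1159280 and 169245 FPKM.

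The highest 5 members held 61.66% of the summed FPKM of all members in lysate, 67.51% for supernatant, 60.47% for pellet1, 60.67% for pellet2 and 71.12% for MVH IP. These sets were not the same. Snord34 and Snord38a were in the top 5 of every condition. Snord8, a guide for U6 RNA, entered in pellet1 with 1538660 FPKM, and Snord57 with 322069 FPKM and Snord99 with 226551 FPKM entered in MVH IP. Snord34 alone held 40.63% of the member sum in MVH IP against 22.80% in lysate. All members together held 66.19% of the summed FPKM of all features in lysate, 52.04% for supernatant, 85.90% for pellet1, 78.22% for pellet2 and 29.12% for MVH IP. Counted over named genes only, the MVH IP share was 84.13%, and most of the remaining MVH IP sum lay in features without a gene symbol.

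Ratios between conditions were computed as log2 of (FPKM + 1) for genes above 0 in both and with a mean of at least 1 FPKM. The values are FPKM and not fragment counts, so for genes this short the filter sets no minimum number of fragments. A ratio of 2-fold or more was counted as higher or lower. Comparisons with lysate share the lysate values and those with pellet2 share the pellet2 values, so they are not independent. The q-values that the authors deposited are quoted beside the ratios. Lysate, supernatant, pellet1 and pellet2 are 1 library each, so these q-values cannot measure the spread between preparations of those fractions.

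Supernatant against lysate asks which RNAs stayed soluble after sonication. Of 51 members measured in both, 35 were lower by 2-fold or more and 0 were higher, where 1.15% of all named genes were lower and 0.488% were higher. The median log2 ratio was -1.23 for the members and about 0 for all genes. Snord96a in Rack1 showed the lowest ratio, with 4531 FPKM in lysate and 496 in supernatant, 9.13-fold lower. Snord90 in Rc3h2 was at 8525 FPKM in lysate and 1966 in supernatant, 4.33-fold lower. Snord49b was at 1370 and 314 FPKM, 4.35-fold lower. The deposited Cuffdiff q-values of Snord96a, Snord90 and Snord49b were 0.404, 0.555 and 0.733. Snord72 in Rpl37 was at 2130 and 2575 FPKM and was the only member measured that was higher in supernatant, with a deposited Cuffdiff q of 0.989. Snord34 stayed close to lysate, at 1.30-fold lower. In the authors' deposited table only Snord58b passed q under 0.05 in this comparison (q = 0.0361, 3.002-fold lower), and it was the only named gene of 10565 with a usable status that passed as lower, 0.00947%.

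Pellet1 against lysate asks which RNAs sedimented. Of 53 members measured in both, 51 were higher by 2-fold or more and 0 were lower, against 16.6% of all named genes higher and 8.45% lower. The median log2 ratio was 3.13, a fold of 8.76, and was 0.08 for all genes. The largest ratio was that of Snord45c, which lies within the Rabggtb gene, at 507 FPKM in lysate and 23812 in pellet1, 46.8-fold higher. The authors' deposited table marks it as low data and lists it at 0 in each comparison with supernatant, for the other fraction too; its ratios here use the values above 0. Snord7, a guide for U6 RNA, followed at 233 and 5945 FPKM, 25.4-fold higher. Snord7 too is marked as low data by the authors, in each comparison used here. Snord61 in Rbmx, a small-subunit guide, was at 3452 and 76563 FPKM, 22.2-fold higher. Snord58b was 19.2-fold higher.

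The lowest pellet1 ratios still lay above 1. Snord65, a small-subunit guide, was at 34422 FPKM in lysate and 51335 in pellet1, 1.49-fold higher, and Snord96a was at 4531 and 8433 FPKM, 1.86-fold higher. These were the members under 2-fold. Snord82 was 3.22-fold and Snord87 3.65-fold higher. By the authors' deposited table, 30 members passed q under 0.05, all higher in pellet1, where 2.16% of named genes with a usable status passed as higher. The q-values in the authors' deposited table were listed as 0 for Snord58b, 4.19e-08 for Snord17, 1.5e-07 for Snord55, 4.3e-07 for Snord92 and 5.26e-07 for Snord85.

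Pellet1 against supernatant compares the products of the same spin, and gave the widest separation. Of 52 members measured, 51 were higher in pellet1 by 2-fold or more and 0 were lower, against 17.6% and 9.02% of named genes. Members had a median log2 ratio of 4.22, a fold of 18.6, and all genes one of 0.08. Snord7 was at 77.1 FPKM in supernatant and 5945 in pellet1, 76.2-fold higher, and Snord61 at 1036 and 76563 FPKM, 73.9-fold higher. Of these, Snord7 is marked as low data. Snord58b was 57.6-fold, Snord90 53.5-fold and Snord17 48.9-fold higher. The exception was Snord42a in Rpl23a, at 2026 FPKM in supernatant and 1951 in pellet1, which was listed at 0 in lysate. The authors' deposited table had 38 members with q under 0.05 here, all higher in pellet1, beside 2.96% of named genes passing as higher.

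Pellet2 against lysate gave 50 of 53 members higher by 2-fold or more and 0 lower, against 12.2% and 5.79% of named genes. Their median log2 ratio was 2.22, a fold of 4.65, with 0.09 for all genes. Snord45c was 29.7-fold and Snord61 12.5-fold higher, and Snord49b was at 1370 FPKM in lysate and 15724 in pellet2, 11.5-fold higher. Snord65 was at 34422 and 29575 FPKM and was the only member measured that lay below lysate. The authors' deposited table had 17 members with q under 0.05, all higher in pellet2, beside 0.965% of named genes passing as higher.

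Pellet2 against pellet1 shows what the second sonication, the filter and the spin left. Of 56 members measured, 24 were lower by 2-fold or more and 1 was higher, against 5.26% of named genes lower and 4.88% higher. On the log2 scale the median ratio was -0.82, with -0.03 for all genes. Snord93 was at 42937 FPKM in pellet1 but 7779 in pellet2, 5.52-fold lower, and Snord7 at 5945 and 1131 FPKM, 5.25-fold lower. The low data mark of Snord7 holds here too. Snord45b was 4.07-fold lower. Snord92 in Wdr43, at 523531 and 160025 FPKM, was 3.27-fold lower and was the only member below q 0.05 in the authors' deposited table (q = 0.0353), where 0.0214% of named genes passed as lower.

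Of the 56 members, 6 were above their pellet1 level. Snord42a was at 1951 FPKM in pellet1 but 19093 in pellet2, 9.78-fold higher. Snord82, a small-subunit guide in the nucleolin gene, was at 89197 and 166366 FPKM, 1.87-fold higher. Snord49b was 1.74-fold, Snord96a 1.72-fold and Snord4a 1.68-fold higher, and Snord19 was 1.07-fold higher, all under 2-fold.

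**Figure D2:**
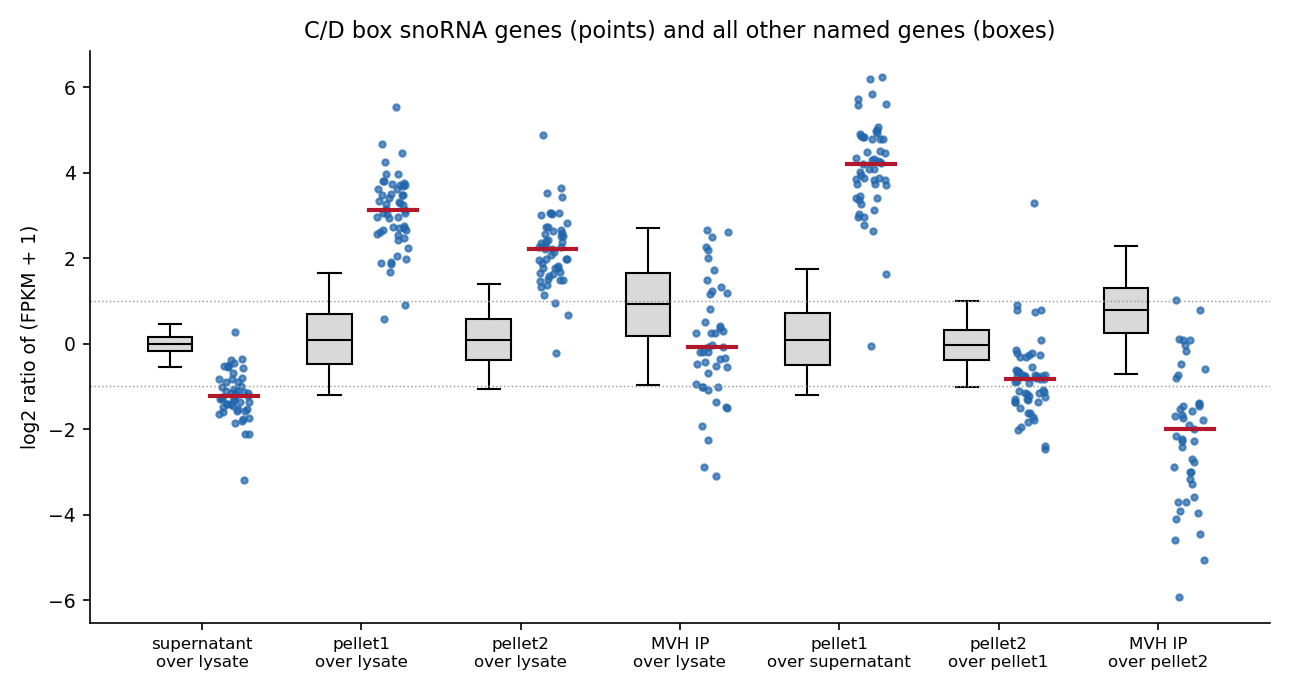
Log2 ratio of (FPKM + 1) in the 7 comparisons. Grey boxes show all other named genes (quartiles, with whiskers from the 5th to the 95th percentile), blue points single C/D box snoRNA genes and red bars their median, with dotted lines at 2-fold. The medians of the members run from 4.22 for pellet1 over supernatant to -1.99 for MVH IP over pellet2.

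The MVH IP against pellet2 asks what the antibody kept of its input as the protocol gives it. Of 45 members measured in both, 34 were lower in the MVH IP by 2-fold or more and 1 was higher, against 3.46% of named genes lower and 38.4% higher. The median log2 ratio was -1.99, a fold of 3.96 lower, whereas the median over all genes was 0.78. Relative to that shift, 38 members were lower by 2-fold or more and 0 were higher. Left out of these counts were 14 members at 0 in MVH IP but not in pellet2, and 1 with the reverse. With zeros kept and no such shift, 47 of 59 were lower and 2 higher. The ratios spread from -5.92 to 1.02 on the log2 scale, so the members did not move as a block.

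Snord69, a large-subunit guide in Gnl3, was at 65442 FPKM in pellet2 and 1078 in MVH IP, 60.7-fold lower. Snord15b was at 15424 and 462 FPKM, 33.3-fold lower, and Snord1b at 79872 and 3298 FPKM, 24.2-fold lower. Snord58b was 21.8-fold lower, Snord35a in Rpl13a 17.2-fold, Snord61 15.7-fold and Snord1c 14.97-fold. Snord22, which acts in processing of small-subunit ribosomal RNA and is encoded in Snhg1, was at 85543 and 6509 FPKM, 13.1-fold lower. These members include large-subunit guides, a small-subunit guide and a processing snoRNA. Among them, Snord58b, Snord22 and Snord15b had deposited Cuffdiff q-values under 0.05. Those of Snord69, Snord1b, Snord35a, Snord1c and Snord61 were 0.0567, 0.120, 0.210, 0.234 and 0.313.

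At the other end, 5 members were above their pellet2 level. Snord45b was at 7724 FPKM in pellet2 and 15687 in MVH IP, 2.03-fold higher. Its deposited Cuffdiff q was 0.931, and neither the separate MVH IP table nor that of other RNA lists it. Snord67, a guide for U6 RNA, was at 3466 and 6030 FPKM, 1.74-fold higher. Snord99 in Snhg12 was 1.08-fold, Snord82 1.06-fold and Snord95 in Rack1 1.06-fold higher. Snord34 was 1.01-fold lower, Snord100 in Rps12 1.12-fold lower and Snord87 1.38-fold lower. By the authors' deposited table, 9 members passed q under 0.05, all lower in MVH IP, where 0.142% of named genes, 14 genes, passed as lower. In the authors' deposited table the lowest q-values were 2.9e-10 for Snord58b, 0.000155 for Snord8, 0.000431 for Snord22, 0.00387 for Snord85 and 0.00511 for Snord15a.

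**Figure D3:**
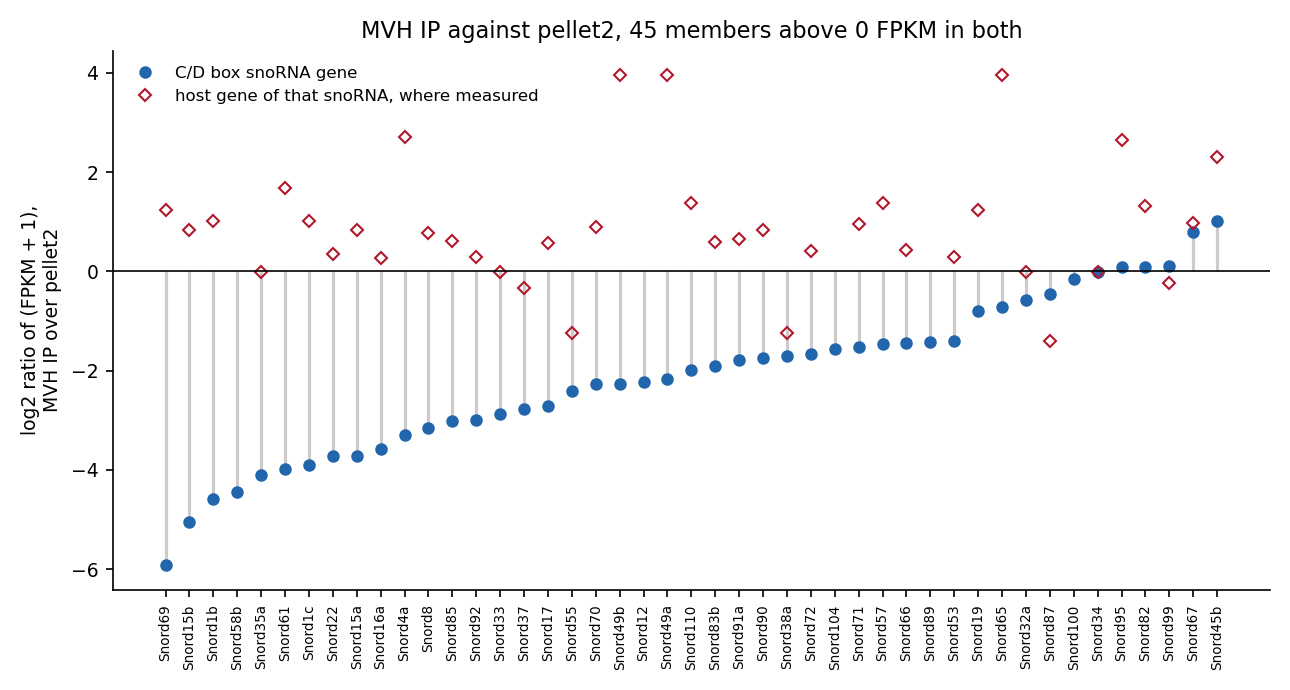
Log2 ratio of (FPKM + 1), MVH IP over pellet2, for the 45 members above 0 in both, in rising order (blue points), with the ratio of the host gene where it was measured (red diamonds). The members span -5.92 (Snord69) to 1.02 (Snord45b), and most hosts lie above the snoRNA they contain.

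The MVH IP against lysate gave no common direction among members above 0 in both. Of 45 members measured in both, 12 were higher by 2-fold or more and 11 were lower, against 47.8% of named genes higher and 4.84% lower. The median log2 ratio was -0.08 for the members and 0.94 for all genes, and relative to that shift 6 were higher and 24 lower. Left out of these counts were 9 members at 0 in MVH IP but not in lysate, and 1 with the reverse. With zeros kept, 13 were higher and 19 lower. Snord82 was at 27702 FPKM in lysate and 176936 in MVH IP, 6.39-fold higher, and was the only member below q 0.05 in the authors' deposited table (q = 0.0375), where 7.05% of named genes passed as higher. Snord67 was at 979 and 6030 FPKM, 6.16-fold higher. Snord45b was 5.66-fold, Snord19 4.803-fold, Snord100 4.62-fold and Snord99 4.04-fold higher, and Snord34 was 2.80-fold higher. Snord15b was at 3963 and 462 FPKM, 8.56-fold lower, and Snord69 at 7914 and 1078 FPKM, 7.34-fold lower. Snord1b was 4.76-fold and Snord22 3.82-fold lower.

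The separate lysate and MVH IP tables, which the authors scaled apart from the joint one, list 36 members in both. There 5 were higher by 2-fold or more in MVH IP and 8 were lower, with a median log2 ratio of -0.28, against 45.2% of the 6101 genes listed in both that were higher, 6.46% that were lower and a median of 0.84. The sign matched that of the joint table for 31 of the 36. All 6 of those members that were lower in the joint table were lower here too, but only 4 of the 10 that were higher were. Snord82 was at 9638 FPKM in lysate and 40652 in MVH IP, and Snord67 at 357 and 1038 FPKM. Snord15b was at 1453 and 213 FPKM and Snord22 at 9023 and 2157 FPKM. Snord100, higher in the joint table, was at 2600 and 3439 FPKM, under 2-fold. The tables are the authors' alternative quantifications of the same named groups and add no replicate.

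**Figure D4:**
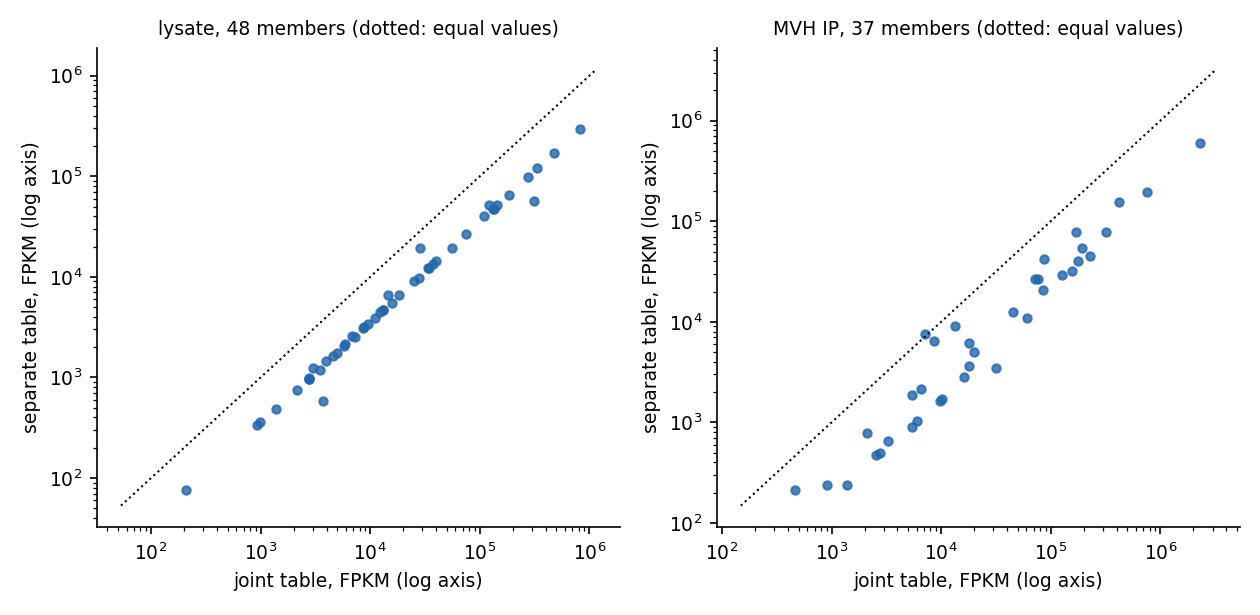
FPKM of members in the separate table against the joint table, both on log axes, for lysate (48 members) and MVH IP (37 members), with a dotted line at equal values. Separate values lie below joint ones by a median of 2.80-fold in lysate and 4.01-fold in MVH IP, and 47 lysate and 33 MVH IP members lie within 2-fold of that median.

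The guides for U6 RNA differed among themselves. Snord8 was at 110148, 68415, 1538660, 687947 and 76776 FPKM from lysate to MVH IP, 8.96-fold below pellet2. Snord67 was at 979, 526, 9874, 3466 and 6030 FPKM, so it was the U6 guide above its pellet2 level. Snord7, marked as low data, was at 233, 77.1, 5945 and 1131 FPKM and listed at 0 in MVH IP.

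Members that share a host gene differed among themselves. Folds between members compare FPKM of genes that can differ in length, such as Snord34 and Snord35a with RefSeq lengths of 66 and 89 bases. They are therefore not ratios of molecules. The 4 members in Rpl13a, the gene of a large-subunit protein, share the deposited mm9 locus chr7:52381146-52384105. Snord34 exceeded Snord35a 165.6-fold for lysate, 182.8-fold for supernatant, 70.06-fold for pellet1, 70.59-fold for pellet2 and 1198-fold for MVH IP. Snord32a was at 37146, 20815, 201682, 127861 and 85273 FPKM in the same order, and Snord33 at 11059, 4699, 143175, 63729 and 8627 FPKM. From pellet2 to MVH IP, Snord34 was 1.01-fold, Snord32a 1.499-fold, Snord33 7.39-fold and Snord35a 17.2-fold lower. Rpl13a itself was at 44.3, 53.7, 36.0, 41.6 and 41.5 FPKM.

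In Gnl3, the gene of nucleostemin, the order of a pair turned over. Snord69 exceeded Snord19 5.28-fold in lysate, 6.44-fold in pellet1 and 5.24-fold in pellet2, but Snord19 exceeded Snord69 6.69-fold in MVH IP. Snord19 was at 1499, 0, 11707, 12488 and 7203 FPKM from lysate to MVH IP. Gnl3 was at 15.05, 13.4, 16.7, 10.1 and 25.01 FPKM. The separate MVH IP table lists Snord19 at 7647 FPKM, and Snord69 is not listed in it. Neither member is listed in the separate lysate table. From pellet2 to MVH IP the deposited Cuffdiff q-values were 0.0567 for Snord69 and 0.951 for Snord19. The change of order itself was not tested.

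In Rps3, Snord15a exceeded Snord15b 1.49-fold, 1.52-fold, 1.57-fold and 1.78-fold from lysate to pellet2, but 4.52-fold in MVH IP. Their printed sequences were identical at 64.5% of aligned positions. In Wdr43, Snord92 exceeded Snord53 3.06-fold in lysate and 5.94-fold in pellet1, and 2.05-fold in MVH IP. Snord1b and Snord1c, identical at 97.4% of aligned positions, cannot be separated with confidence and were 24.2-fold and 14.97-fold lower in MVH IP than in pellet2.

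**Figure D5:**
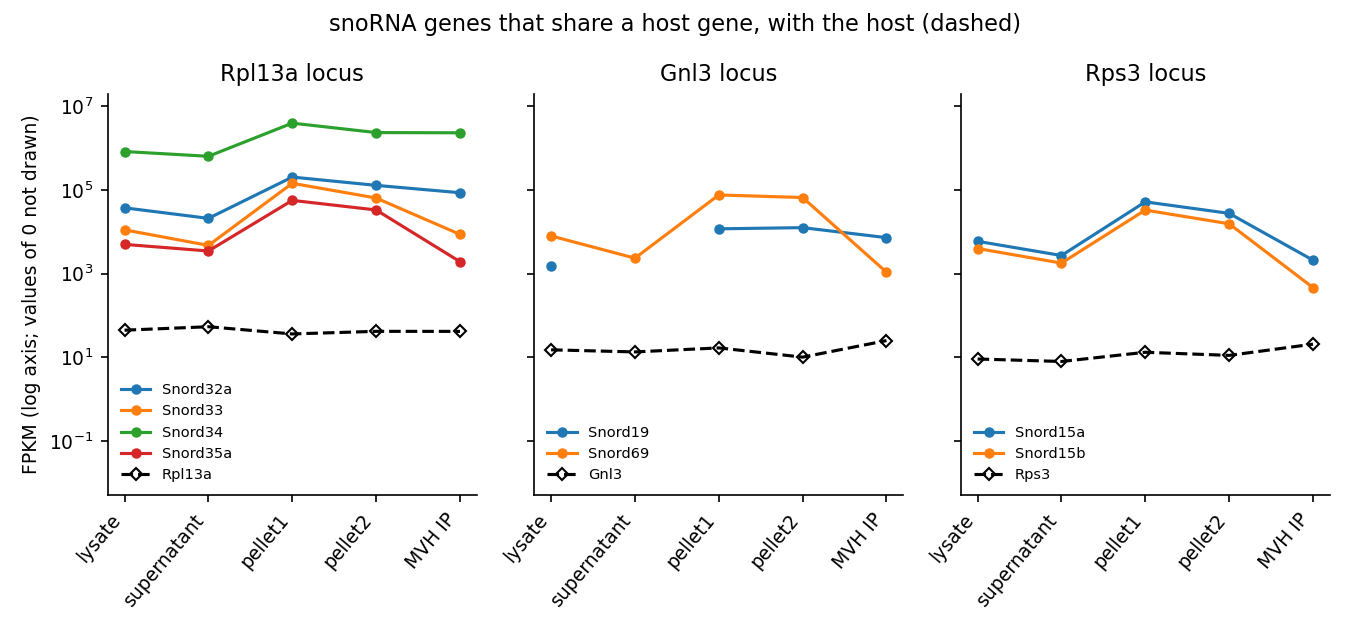
FPKM on a log axis of snoRNA genes that share a host gene in the 5 conditions, with the host gene dashed and values of 0 not drawn. Snord34 keeps its level in MVH IP while Snord35a of the same host drops, and Snord19 and Snord69 change places.

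Set against their host genes, the members had a profile of their own. In pellet1 against lysate, the member's log2 ratio was above that of its host in 45 of 46 measured pairs, with a median of 3.09 for members and 0.27 for the 32 hosts. In supernatant against lysate it was below the host's in 44 of 45 pairs, with medians of -1.23 and -0.05. In MVH IP against pellet2 it was below the host's in 38 of 40 pairs, with medians of -2.08 and 0.78. Both exceptions were members of Snhg hosts, namely Snord87, 1.38-fold lower while Snhg6 went from 18.4 to 6.38 FPKM, and Snord99, 1.08-fold higher while Snhg12 went from 10.4 to 8.69 FPKM. Gas5, host of Snord47, was at 21.7, 14.8, 162, 112 and 35.5 FPKM from lysate to MVH IP.

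Members were also divided by the kind of host gene. From lysate to pellet1 the median log2 ratio was 3.22 for the 14 members above 0 throughout with a ribosomal protein host, 3.25 for 19 with another protein-coding host and 2.59 for 10 with a noncoding host. From pellet2 to MVH IP the medians were -2.65, -1.79 and -2.20. As a description over the 44 members, which share libraries and scale, transcript length had a Spearman correlation of -0.36 with the lysate level and -0.23 with the log2 ratio of MVH IP to pellet2. GC content had one of 0.08 with that ratio. With the other ratios, transcript length had correlations from -0.35 (pellet2 to pellet1) to 0.26 (pellet1 to lysate).

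The 23 members with values of 0 differ in kind. In MVH IP 21 of the 67 members were at 0, and the count was 13 for lysate, 14 for supernatant, 7 for pellet1 and 8 for pellet2. Of all named genes, 27.14% were at 0 in MVH IP. Their share at 0 was 17.88% for lysate, 15.83% for supernatant, 25.36% for pellet1 and 26.32% for pellet2. Zeros in MVH IP were therefore not particular to the members. At 0 in the MVH IP alone were 8 members, namely Snord2, Snord7, Snord11, Snord23, Snord93, Snord96a, Snord111 and Snord123. These zeros hold for the joint table, and another MVH IP table, of other RNA, lists Snord93 at 4399 FPKM. Snord11 in Nop58, the gene of a C/D core protein, had 13157, 5338, 148119 and 57864 FPKM from lysate to pellet2, while Snord70 in the same host had 71287 FPKM in the MVH IP. Snord19 was at 0 in supernatant alone.

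Several other members were above 0 in few fractions. Snord68 in Rpl13 was listed only in pellet1, at 15842 FPKM, and pellet2, at 6200, and Snord35b only in pellet1, at 1430, and pellet2, at 464. Snord47 was listed only in pellet2, at 3414 FPKM, and Snord42b only in pellet1, at 2001. Snord1a was listed above 0 only in pellet2, at 1614 FPKM in the comparison with MVH IP and at 0 in the comparisons with the other fractions, and the authors' deposited table marks it as low data. Snord88a was at 2120 FPKM in pellet1 and 25.6 in MVH IP and at 0 elsewhere, and Snord88c, identical to it at 94.4% of aligned positions, was listed only in pellet1, at 716. Snord45c, described above, was at 0 in supernatant and MVH IP. Snord123 never exceeded 0.308 FPKM.

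A number of these zeros had a value in another table. The MVH IP table of other RNA gives values for 2 members at 0 in the joint MVH IP, Snord93 at 4399 FPKM and Snord42a at 4315 FPKM. The separate lysate table gives values for 6 members that the joint table lists at 0 in lysate. These were Snord47 at 732 FPKM, Snord42a at 479, Snord116 and Snord116l1 at 221 each, Snord52 at 199 and Snord88c at 32.3. Snord116, a brain-enriched imprinted snoRNA of many near-identical copies, and Snord52 were at 0 in all 5 conditions of the joint table, as were Snord116l1, Snord43 and Snord64. A value of 0 was therefore given no fold.

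The proteins that bind C/D box snoRNAs had other profiles in their mRNAs. Of the 4 core protein genes, 2 were higher by 2-fold or more in pellet1 than in lysate and 0 lower, and 3 were higher in MVH IP than in lysate. Fbl, the methyltransferase, was at 14.6 FPKM for lysate, 26.2 for pellet1, 20.8 for pellet2 and 26.0 for MVH IP. Nop58 was at 33.0, 68.0, 57.6 and 108 FPKM. Nhp2l1 was at 21.8, 50.4, 24.4 and 85.0 FPKM, whereas Nop56 was lower in pellet1 than in lysate, at 4.34, 2.04, 3.99 and 11.9 FPKM. Of 19 genes for assembly and processing factors, 1 was higher in pellet1 than in lysate (Znhit3) and 2 were lower (Npm1 and Rrp9), and 7 were higher and 1 lower in MVH IP than in lysate. Of 14 snoRNA host genes listed, 13 were measured in pellet1 and lysate, with 4 higher and 2 lower. The pellet1 counts stand beside 16.6% of named genes higher and 8.45% lower, and the MVH IP counts beside 47.8% higher and 4.84% lower.

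Of 19 testis marker genes, 18 were at 1 FPKM or more in lysate, among them Prm1, a haploid germ cell protamine, at 13795 FPKM, and the Leydig cell gene Cyp17a1 at 140. In pellet1, 0 of 18 measured markers were higher and 5 were lower than in lysate by 2-fold or more, against 16.6% and 8.45% of named genes. These 5 were the Sertoli cell genes Clu and Ctsl and the Leydig cell genes Cyp17a1, Cyp11a1 and Star. The summed level of the 4 Sertoli markers was 48.7 FPKM for lysate, 53.7 for supernatant, 17.5 for pellet1, 24.0 for pellet2 and 242 for MVH IP. All 4 were higher in MVH IP than in lysate by 2-fold or more, as were 47.8% of named genes. Of all 19 markers, 5 were higher and 1 was lower in MVH IP than in lysate, where 4.84% of named genes were lower. Clu was at 30.0 FPKM in lysate, 11.4 in pellet1 and 101 in MVH IP, and Ctsl at 14.6, 3.18 and 127. The 4 Leydig markers summed to 266, 235, 132, 154 and 165 FPKM in the same order of conditions, and the 6 round spermatid markers to 39971, 39612, 25284, 29450 and 32998 FPKM. So the Sertoli and Leydig sums were lower in both pellets than in lysate, and the Sertoli sum was higher in MVH IP than in lysate. Not every Sertoli marker fell, as Sox9 was at 0.77 FPKM in lysate and 1.00 in pellet1, and Wt1 at 3.37 in lysate and 3.73 in pellet2. The germ line sums were lower in pellet1 as well. Spermatocyte markers went from 188.2 FPKM in lysate to 113.0 in pellet1, and germ cell markers from 304.0 to 226.9. The part of other cell types in the snoRNA levels was not tested.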

How the data were processed

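RNA-seq of 14 libraries in 9 groups was deposited, and values of lysate, supernatant, pellet1, pellet2 and MVH IP were used for the comparisons. Libraries were primed with not-so-random primers, per the labels' protocols. TopHat and Cuffdiff were used on mm9, per the submitters' processing notes; the sources do not give versions, scaling or depth. The authors deposited FPKM values, 1 per condition in the joint table, and Cuffdiff p-values and q-values, which are quoted at a threshold of 0.05. Loci are mm9, written counted from 1. The FPKM unit of the tables without a header was inferred from the deposited values. Column count not used: 1, a small RNA column.

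From these, log2 ratios of (FPKM + 1) were computed with pandas 2.3.3 on Python 3.11.15 for genes with a symbol, above 0 in both conditions and at a mean of at least 1 FPKM. Such ratios understate changes of low genes. The calculation was tested on simulated data. A limma test had been foreseen for library values; pooled values allow none, so no p-value, SD or n was computed. Where a condition's value differed between the 10 pairs (26 features, 2 of them members), the highest was used. Members, lists and tests were chosen with earlier results of these data known. Named were, per comparison, the 8 highest and 8 lowest ratios as candidates, per condition the 5 highest levels, members at q under 0.05 (the 15 lowest where more), and role lists; other members named were chosen after their values were seen. One host gene is not reported here. Further lists were core proteins, assembly factors, testis markers, other small RNA classes and host genes. Alternatives tried were the pseudocount, the filter, zeros, centring, the fold, locus width, the lowest listed value, the status and the separate tables.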

Additional observations from a re-analysis of the deposited data

How the results depend on the processing

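Of 128 recounts of members higher or lower across the 7 comparisons, 103 stayed within 1.5 times. A pseudocount of 0.1, no filter and a mean of at least 5 FPKM moved none of the 14 counts each. Members above 0 throughout were at 296 FPKM or more, so these settings could hardly move the counts. The lowest listed value, which differed for 2 members only, and the status OK alone moved none either. All of these are part of the 128 recounts, so that total says little about the other settings. The lowest listed value, the status and the separate tables were chosen after seeing the data. Centring on the median of all genes gave 6 higher and 24 lower for MVH IP over lysate and 0 higher for MVH IP over pellet2. At 4-fold, 3 members were lower in supernatant than lysate, 30 higher in pellet2 than lysate, 6 higher and 3 lower in MVH IP than lysate, 3 lower in pellet2 than pellet1, and 22 lower and 0 higher in MVH IP than pellet2. With members at 0 in 1 condition kept, 1 was higher in supernatant than lysate, 19 lower in MVH IP than lysate, 3 higher in pellet2 than pellet1 and 2 higher in MVH IP than pellet2. With 1 member per locus and loci up to 1000 bases only, 3 members were left for most comparisons and 2 for those with MVH IP: 1 was lower in supernatant than lysate, 3 were higher in pellet1 than lysate, 3 in pellet2 than lysate and 3 in pellet1 than supernatant, 2 were lower and 0 higher in pellet2 than pellet1, 0 were higher and 0 lower in MVH IP than lysate, and 2 were lower and 0 higher in MVH IP than pellet2. The construction, with few members left, sets these last counts; for the other settings the cause was not tested. The separate tables gave 5 higher and 8 lower in MVH IP than lysate. Over named genes only, members held 81.03% of the summed FPKM for lysate, 73.70% for supernatant, 89.68% for pellet1, 86.93% for pellet2 and 84.13% for MVH IP.

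No paired analysis was possible because each condition has 1 deposited value and the labels' shared replicate number carries no second library to pair. Leaving out a library was not possible for the same reason.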

Other observations

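H/ACA snoRNAs, which guide pseudouridylation, were measured in the same table. Of 28 Snora genes measured in pellet1 and lysate, 26 were higher in pellet1 by 2-fold or more and 0 lower (median log2 2.71), against 16.6% and 8.45% of named genes. Of 15 measured in MVH IP and pellet2, 11 were lower in MVH IP and 0 higher (median log2 -2.52), against 3.46% of named genes lower and 38.4% higher. Of 8 small Cajal body RNA genes, 5 were higher and 1 lower in pellet1 than in lysate. Scarna9 was at 256724, 154556, 2021780, 1578060 and 269696 FPKM from lysate to MVH IP. Of 6 genes with an Rnu symbol, 3 were higher in pellet1 than in lysate and 0 lower. Of these 3, Rnu73a and Rnu73b are C/D box snoRNA genes under another symbol, outside the rule used here, and stood at 713 and 723 FPKM in lysate, 1588 and 2131 in pellet1, and 0 in MVH IP. The other was Rnu7, a small nuclear RNA of histone mRNA processing, at 1.75 and 8.57 FPKM. The minor spliceosomal Rnu11 was at 36099, 19598, 26963, 15297 and 10707 FPKM, and Rnu12 was at 15444, 9511.6 and 5769.7 FPKM in lysate, pellet1 and pellet2.

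In sorted round spermatids, 32 members were listed in the other RNA table and in the separate lysate table, which were scaled apart, with a median log2 ratio of round spermatids to lysate of -1.04. For a library of the round spermatid pool, the labels give RNA of at least 500 bp, longer than any of the members' transcripts. The lysate has no such limit in the labels, and the part of this limit in the lower levels was not tested. Snord42a lay farthest above, at 1651 FPKM against 479 in lysate, and Snord90 farthest below, at 323 and 3075 FPKM. Round spermatids of the library labelled hetMIWI listed 11 of the lysate members. Snord104 was at 76.0 FPKM there and at 52320 in the separate lysate table, while Snord53 was at 1809 and 4692 FPKM. These libraries were not tested against each other.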
